A study of Mus musculus with 6 samples.

Results

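The p53 pathway and the DNA damage response were followed through 34 genes: p53 itself (Trp53) and its regulators, the arrest, death and repair genes that p53 switches on, the kinases that sense broken or stalled DNA, and the repair factors that work beside them. The genes were picked by name, and every non-control probe on the arrays that carried one of those names was taken. That gave 45 probes of the 55681 on the array, and 34 of its 34821 gene names. RNA had been measured in aortic arches of female C57BL/6 mice, 1 arch per array and 3 mice per group. The BM Mir21 KO group had Mir21-/- bone marrow and the BM Mir21 WT group had Mir21+/+ bone marrow. Recipients in both groups were Mir21+/+, so the deletion was restricted to cells descended from the graft, and no label gives the share of arch cells that came from it. The labels name no other allele.

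Both groups had been irradiated before the transplant, with 2 X-ray exposures of 5 Gy given inside 4 h. Both then ate a high-fat diet for 12 weeks that started 3 weeks after the exposure, so the arches were taken about 15 weeks after the radiation. There was no unirradiated group. The comparison therefore asks whether marrow genotype changed these transcripts in arches that shared the same radiation history, and it holds no measure of what the radiation itself did. The series title names the daily clock and apoptosis in atherosclerotic lesions as the subject of the study, and several of the genes below are p53-driven apoptosis genes. No probe carried the name of Mir21, so the genotype could not be checked on these arrays.

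As background, p53 is a transcription factor that is made continuously and destroyed almost as fast, because its own target Mdm2 is the ligase that marks it for degradation. DNA breaks activate the kinases Atm and Atr, which act through Chek2 and Chek1, and p53 is then phosphorylated and escapes Mdm2. Much of the regulation of p53 is therefore on the protein, and transcript arrays see it mainly through the targets. The stabilised protein raises Cdkn1a (p21), which stops the cell cycle, and a set of death, antioxidant and repair genes. In arteries, p53 and p21 are known for restraining the growth of smooth muscle cells and macrophages.

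No gene of the set passed the test adjusted over all probes, against 0.00261% of all tested probes (1 of 38342). At an unadjusted p under 0.05, 1 member was higher with knockout marrow, Cdkn1a, and 1 was lower, Plk2, of 31 members with a tested probe. Over all 26410 tested gene names the same threshold was passed by 3.83% in the higher and 4.24% in the lower direction, so the members' share was near the background in both. The median knockout minus wild-type difference of the 31 members was 0.00 on the log2 scale, with 16 differences above 0 and 15 below. All levels below are log2 signals relative to the 75th percentile of the same array, and all differences are knockout minus wild-type marrow in log2 units with the standard error of the limma fit. A level says how bright a probe was on an array and is not compared between probes. In whole arches, fewer cells of a type and less RNA per cell cannot be told apart.

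**Figure D1:**
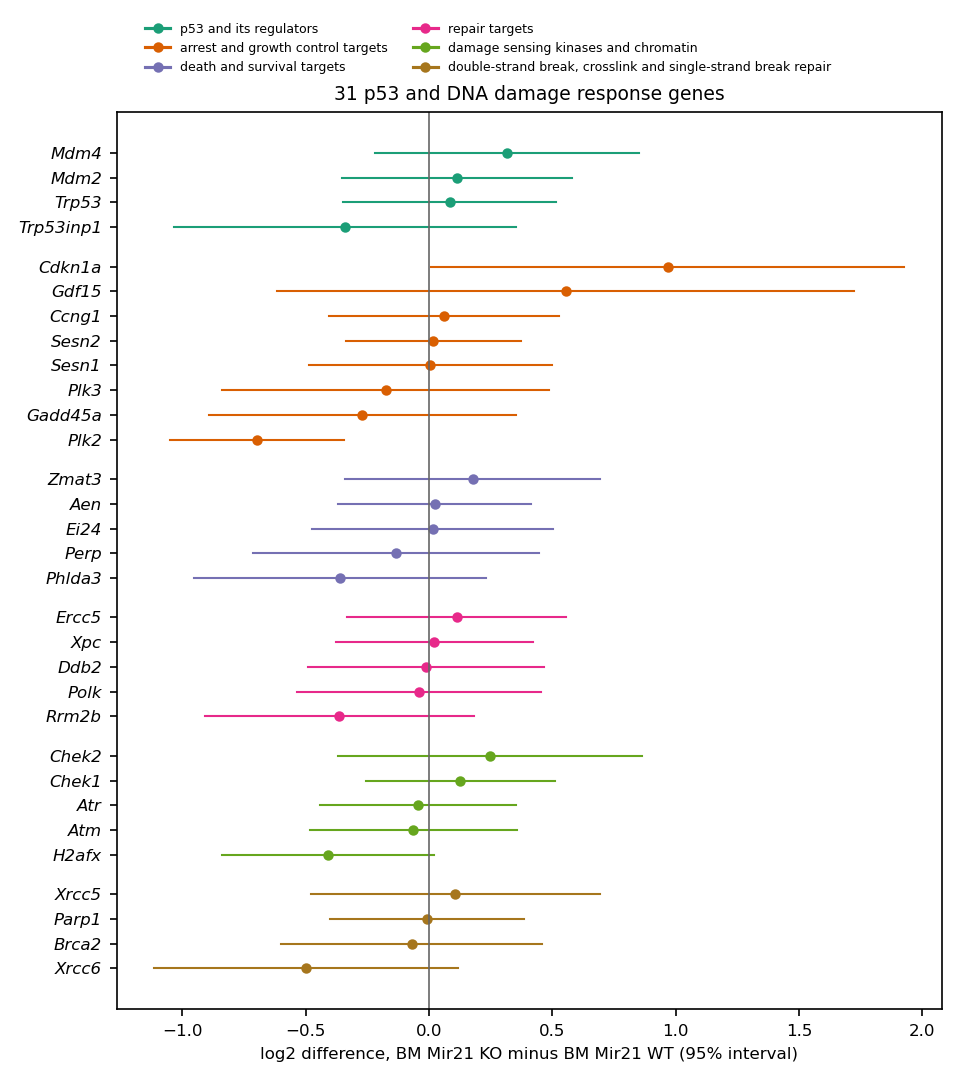
Knockout minus wild-type difference (log2, horizontal axis) of the brightest tested probe of each of 31 members, with lines for its 95% interval from the limma fit and colours for the role. The intervals of Cdkn1a, at 0.97 on the right, and Plk2, at -0.70 on the left, are the only ones that leave out 0.

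The arrays had 66.4% to 74.4% of spots well above background and 0 saturated spots. They shared 1 slide and 1 scan, with knockout arrays in slide row 2 and wild-type arrays in row 1, so row and group cannot be told apart. Of the 45 member probes, 41 were tested, and all 41 were well above background on all 6 arrays. All 10 smooth muscle and all 10 endothelial markers on the list qualified for the test. So did all 20 white adipocyte and all 10 cardiac muscle markers, and 38342 of all 55681 probes. Detection of vessel markers was therefore only a weak check of the tissue label. BM Mir21 KO replicates 2 and 3 stood apart in the RNA of fat-cell markers. The mean of 20 white adipocyte markers, as the deviation from its mean over the 6 arrays, was 1.25, -1.23 and -2.47 on the knockout arrays and 1.05, 0.15 and 1.26 on the wild-type arrays, with 0 of the 20 higher and 4 lower at an unadjusted p under 0.05. On the same scale, the mean of 19 brown adipocyte markers was 1.21, -1.47 and -2.40 on the knockout arrays and 1.19, 0.15 and 1.31 on the wild-type arrays. The mean over the 31 members was -0.11, 0.11 and -0.03 on the knockout arrays and 0.04, 0.01 and -0.03 on the wild-type arrays. Differences of both signs cancel in this mean, so it cannot show whether single members followed the fat-cell markers. For single members the part of fat content was not tested. Values without knockout replicates 2 and 3 are given where they change a statement.

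Cdkn1a was the only member with an unadjusted limma p under 0.05 at more than 1 probe, and its gene structure matters for reading it. Plk2 and H2afx had 1 probe each, so they could not be compared in this way. It has 2 start sites in RefSeq, 2790 bases apart on the plus strand of chromosome 17 (GRCm38.p6). The windows around them are shown because, in the array annotation, 1 of the 3 Cdkn1a probes reads transcript variant 2 alone and another reads variants 1 and 2. Each window holds 250 bases before and 50 after a start. The capitals mark the letters CATGNNNNNNCATG, the centres of a pair of p53 half-sites, which begin at position -48 from the upstream start.
Upstream start, chr17:29090729-29091028: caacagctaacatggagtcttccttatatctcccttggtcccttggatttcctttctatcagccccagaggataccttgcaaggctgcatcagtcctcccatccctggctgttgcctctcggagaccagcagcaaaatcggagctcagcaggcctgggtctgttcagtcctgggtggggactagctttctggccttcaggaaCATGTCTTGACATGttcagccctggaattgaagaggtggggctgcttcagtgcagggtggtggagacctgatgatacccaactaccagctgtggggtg
Downstream start, chr17:29093519-29093818: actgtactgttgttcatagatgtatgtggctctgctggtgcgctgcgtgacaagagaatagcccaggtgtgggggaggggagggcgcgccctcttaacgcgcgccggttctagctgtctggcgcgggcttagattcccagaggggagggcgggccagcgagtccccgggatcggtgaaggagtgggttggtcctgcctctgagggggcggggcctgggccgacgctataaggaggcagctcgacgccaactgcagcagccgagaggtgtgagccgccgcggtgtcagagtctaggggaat
The letters CATGNNNNNNCATG read the same on both strands. They were chosen after the Cdkn1a window had been read, and no other motif was counted. They were found in 1 of 32 windows of the 26 members that have one in the table, the upstream window of Cdkn1a, and in 234 of 32851 windows of all genes (0.712%). The match is a description of the sequence and not a measured binding site. Which variant begins at which start is not given in the table.

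The 3 Cdkn1a probes lie in order along the gene, with array coordinates on mm9. The variant 2 probe, matched to transcript variant 2 only, lies at chr17:29227986-29228045. The start codon probe is matched in the files to an Ensembl transcript and to neither variant 1 nor variant 2. Whether it reads the RNA of either variant was not tested, so it cannot be counted as a second reading of the shared probe's transcripts. The start codon probe lies at chr17:29235299-29235358, 60 bases without a break in the genome, most of them before the first codon of p21. Whether those bases are part of spliced RNA was not looked up, so the probe's signal is not given as a measure of p21 messenger RNA. The probe's last bases are shown here because they hold that codon, in capitals.
Last 30 bases of the start codon probe: tcttgtgtttcagccacaggcaccATGtcc
The shared probe lies in the last part of the gene, at chr17:29237377-29237436, and reads variants 1 and 2. It was printed 10 times on each array.

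None of the 4 genes for p53 and its regulators had an unadjusted p under 0.05 in the limma fit. Trp53, which encodes p53, had levels of -2.53, -2.37 and -2.43 with knockout marrow and -2.76, -2.22 and -2.60 with wild-type marrow. The knockout levels lay inside the wild-type range, and the difference was 0.08 ± 0.18 (95% interval -0.35 to 0.51). Mdm2, the ligase that degrades p53 and is itself a p53 target, had levels of 3.19, 3.73 and 3.48 with knockout marrow and 3.50, 3.43 and 3.12 with wild-type marrow. Its groups overlapped, and the difference of 0.11 ± 0.20 had an interval of -0.36 to 0.58.

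Mdm4, the partner of Mdm2 that blocks p53 activity, had levels of -0.12, -0.60 and 0.07 with knockout marrow, against -0.63, -0.24 and -0.73 with wild-type marrow. The difference was 0.32 ± 0.23, with an overlap between groups, and it was 0.20 ± 0.20 at a second probe. Trp53inp1, a p53 target that promotes p53 activity and cell death, had levels of 2.30, 2.64 and 2.72 with knockout marrow, against 3.57, 2.60 and 2.53 with wild-type marrow. Wild-type replicate 1 was the array that stood apart. The difference of -0.34 ± 0.30 became -0.01 without it, and it was -0.12 ± 0.22 at the dimmer probe with all arrays.

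The arrest and growth control targets held both members with an unadjusted p under 0.05. At the shared probe Cdkn1a, the cyclin-dependent kinase inhibitor p21, had levels of 2.74, 2.96 and 2.15 with knockout marrow, against 2.58, 1.04 and 1.34 with wild-type marrow. Wild-type replicate 1 was inside the knockout range, and the other two wild-type arrays were below all knockout arrays. The means were 2.62 ± 0.42 with knockout and 1.65 ± 0.81 with wild-type marrow (SD, n = 3 each). The difference was 0.97 ± 0.41, or 1.95-fold higher (95% interval 0.01 to 1.93; limma, unadjusted p = 0.0488, adjusted p = 0.573).

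At the start codon probe the groups did not overlap. The levels were -3.75, -3.77 and -3.70 with knockout marrow, against -4.38, -4.42 and -4.65 with wild-type marrow. The means were -3.74 ± 0.03 and -4.48 ± 0.14 (SD, n = 3 each), and the difference was 0.74 ± 0.15, or 1.67-fold higher (limma, unadjusted p = 0.00151, adjusted p = 0.382). The probe was dim but well above background on all 6 arrays, and whether it reads spliced p21 RNA was not tested. At the variant 2 probe the levels were -1.51, -1.28 and -1.92 with knockout marrow and -1.41, -2.09 and -1.70 with wild-type marrow. They overlapped, with a difference of 0.17 ± 0.24 (95% interval -0.40 to 0.74).

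The Cdkn1a probes were also set against each other within each array. The shared minus the variant 2 value was 4.25, 4.24 and 4.07 on the knockout arrays and 3.99, 3.14 and 3.04 on the wild-type arrays. The gap was wider by 0.80 with knockout marrow on average, with no overlap between groups. The exact permutation p was 0.1, two-sided, which is the smallest that 3 arrays against 3 allow. The start codon minus the variant 2 value differed by 0.58 between groups (exact permutation p = 0.2). The groups overlapped in this second contrast, and neither exact p was under 0.05. These contrasts therefore do not settle whether the probes changed unequally.

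How firm the Cdkn1a difference was depended on the probe. For the shared probe the unadjusted limma p stayed under 0.05 in 9 of 17 alternatives, counting the setting in which the 3 probes were averaged. The difference ran from 0.63 in that setting to 1.43 where wild-type replicate 1 was left out. The p was not under 0.05 with trended robust variance (unadjusted p = 0.0515 by limma) or array weights (unadjusted p = 0.0575 by limma). Without the filter on dim probes it was 0.0624 by limma, unadjusted. It was not under 0.05 without knockout replicate 1 (difference 0.91, unadjusted p = 0.118 by limma), without knockout replicate 2 (0.79, unadjusted p = 0.144 by limma), without wild-type replicate 2 (0.66, unadjusted p = 0.157 by limma) or without wild-type replicate 3 (0.81, unadjusted p = 0.133 by limma). Without knockout replicates 2 and 3 together the difference was 1.09 (limma, unadjusted p = 0.135). At the start codon probe it stayed under 0.05 in 15 of 16, and was 0.34 with unadjusted p = 0.0635 by limma under normexp background correction. The sign was positive in all of these settings at both probes.

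Plk2, a polo-like kinase of centriole duplication and stress signalling and a known p53 target, went the other way. Its levels, read at chr13:111190915-111190974 (mm9), were -2.11, -2.32 and -2.35 with knockout marrow, against -1.62, -1.55 and -1.51 with wild-type marrow. All knockout arrays lay below all wild-type arrays. The means were -2.26 ± 0.13 and -1.56 ± 0.05 (SD, n = 3 each), a difference of -0.70 ± 0.15 or 1.62-fold lower (limma, unadjusted p = 0.00211, adjusted p = 0.394). The unadjusted p was under 0.05 in 17 of 17 alternatives, including the fit without knockout replicates 2 and 3 (-0.55). Under normexp background correction the difference was smaller, -0.30. Cdkn1a and Plk2 differed in opposite directions. With 1 of 31 members called each way, near the 3.83% and 4.24% of all gene names, this is not read as a result about p53 targets.

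**Figure D2:**
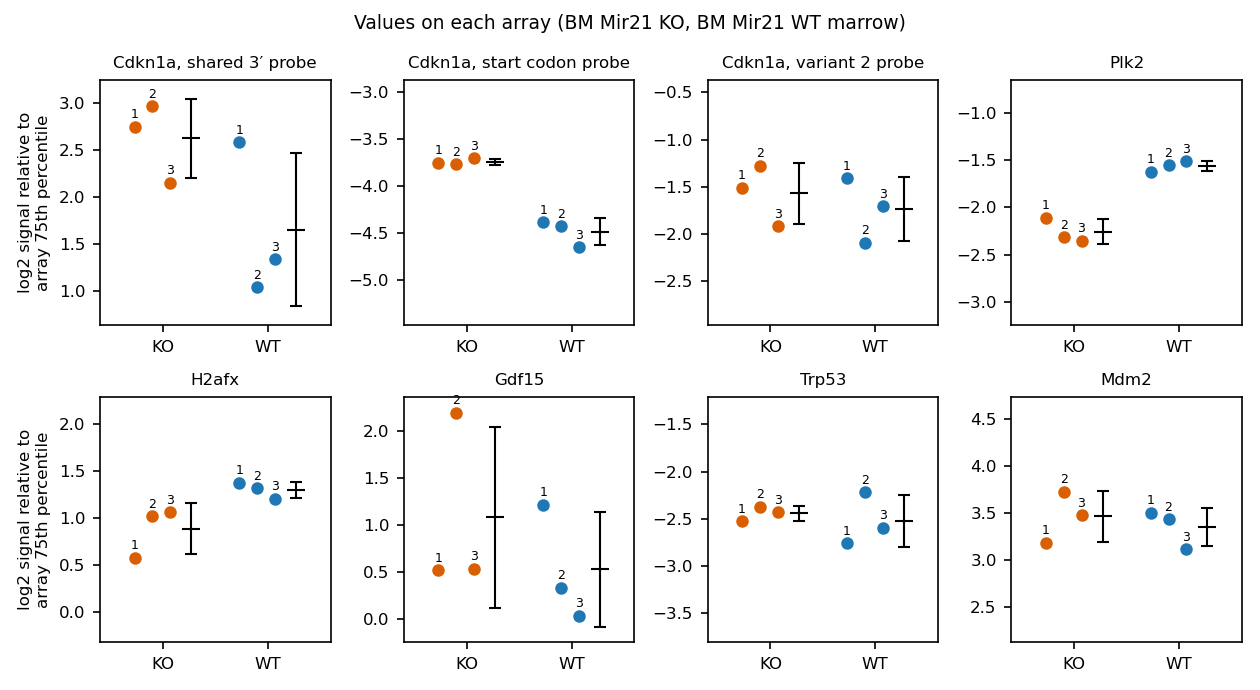
Level of the 3 Cdkn1a probes, Plk2, H2afx, Gdf15, Trp53 and Mdm2 on each array (vertical axis, log2 signal relative to the array's 75th percentile), with knockout left of wild-type arrays, replicate numbers above the points, and the mean and SD in black beside them. The groups do not overlap for the start codon probe of Cdkn1a, Plk2 and H2afx, whereas wild-type replicate 1 reaches 2.58 at the shared Cdkn1a probe, inside the knockout range.

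The other 6 arrest and growth control targets had an unadjusted p above 0.05. Gdf15, a secreted stress cytokine, had the largest of their differences, 0.55 ± 0.50. Its levels were 0.52, 2.19 and 0.54 with knockout marrow and 1.22, 0.33 and 0.04 with wild-type marrow, so knockout replicate 2 alone lay above the wild-type range. Gadd45a, a growth arrest protein that responds to DNA damage, differed by -0.27 ± 0.27. Plk3, a second polo-like kinase of the stress response, differed by -0.18 ± 0.28. Ccng1, the cyclin G1 that recruits a phosphatase to Mdm2, differed by 0.06 ± 0.20. The stress sensors Sesn1 and Sesn2, which restrain growth signalling through mTORC1, differed by 0.00 ± 0.21 and 0.02 ± 0.15.

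None of the 5 tested death and survival targets had an unadjusted p under 0.05 in the limma fit. Phlda3, a p53 target that inhibits the survival kinase Akt, had levels of 5.25, 4.84 and 4.44 with knockout marrow, against 4.97, 5.11 and 5.54 with wild-type marrow. The groups overlapped and the difference was -0.36 ± 0.25. Zmat3, a p53-induced RNA-binding zinc finger protein, had levels of 0.52, 1.20 and 1.09 with knockout marrow and 0.94, 0.58 and 0.75 with wild-type marrow, a difference of 0.18 ± 0.22. Without knockout replicates 2 and 3 both signs turned, to 0.05 for Phlda3 and -0.24 for Zmat3. Perp, a membrane protein of p53-dependent apoptosis and of desmosomes, differed by -0.13 ± 0.25. Ei24, a p53-induced protein of the endoplasmic reticulum, and Aen, a nuclease of apoptotic DNA breakdown, differed by 0.01 ± 0.21 and 0.02 ± 0.17. A second Aen probe gave 0.06 ± 0.18. Eda2r, a death receptor of the TNF receptor family, had 2 probes that did not qualify for the test. One was well above background on 1 knockout and 2 wild-type arrays, and the other on 0 knockout arrays and 1 wild-type array.

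Of the 5 repair genes that p53 induces, 0 had an unadjusted p under 0.05 at the brightest probe in the limma fit. Rrm2b, the ribonucleotide reductase subunit that supplies nucleotides for repair, had levels of -2.63, -1.80 and -2.10 with knockout marrow, against -1.90, -1.63 and -1.90 with wild-type marrow, a difference of -0.36 ± 0.23. Its dimmer probe went the other way, with -3.37, -3.44 and -3.80 on knockout arrays and -3.87, -3.93 and -3.82 on wild-type arrays (0.34 ± 0.17). The probes disagreed in sign, and the bright minus dim value differed by -0.70 between groups (exact permutation p = 0.1, the smallest possible). No direction can be given for Rrm2b from these arrays.

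Ercc5, the endonuclease that cuts on the 3′ side of bulky lesions, had levels of 0.15, 0.35 and 0.66 with knockout marrow and 0.33, 0.41 and 0.09 with wild-type marrow, a difference of 0.11 ± 0.19. A second, dimmer Ercc5 probe gave 0.22 ± 0.19. The damage recognition genes of nucleotide excision repair, Xpc and Ddb2, differed by 0.02 ± 0.17 and -0.01 ± 0.20. Polk, a polymerase that copies across damaged bases, differed by -0.04 ± 0.21 and by 0.07 ± 0.23 at its second probe. For the repair targets the intervals of all 5 brightest probes lay within a 2-fold change in either direction.

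The 4 damage-sensing kinases all had an unadjusted p above 0.05 in the limma fit. Atm, the kinase of double-strand breaks, differed by -0.06 ± 0.18, and by 0.16 ± 0.17 at a second probe. Atr, the kinase of stalled replication forks, differed by -0.04 ± 0.17 and by 0.00 ± 0.26. Chek1, the kinase below Atr, differed by 0.13 ± 0.16. Chek2, the kinase below Atm, had levels of -3.43, -3.67 and -3.74 with knockout marrow and -3.81, -4.38 and -3.38 with wild-type marrow. Wild-type replicate 2 was the lowest array, and the difference of 0.25 ± 0.26 became -0.02 without it.

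H2afx, now named H2ax, encodes the histone variant whose phosphorylated form marks broken DNA. Its levels were 0.58, 1.02 and 1.06 with knockout marrow, against 1.37, 1.32 and 1.20 with wild-type marrow. All knockout arrays lay below all wild-type arrays, with means of 0.89 ± 0.27 and 1.30 ± 0.09 (SD, n = 3 each). The difference was -0.41 ± 0.18, or 1.33-fold lower (limma, unadjusted p = 0.0581, adjusted p = 0.585). Knockout replicate 1 carried part of it: the difference was -0.26 without that array. The unadjusted limma p was under 0.05 in 5 of 17 alternatives. Among these were normexp background correction (-0.40), quantile normalization (-0.41) and trended robust variance (-0.41). Transcript level is not a measure of the phosphorylated protein. H2afx and Plk2 were the 2 members of 31 whose brightest probe had every knockout array below every wild-type array, against 6.11% of all gene names, and 0 members lay wholly above, against 6.77%.

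Of the 6 genes of double-strand break, crosslink and single-strand break repair, 4 were tested, none with an unadjusted p under 0.05 in the limma fit. Xrcc6 encodes Ku70, the end-binding protein of non-homologous end joining. Its levels were 3.45, 2.54 and 2.71 with knockout marrow, against 3.45, 3.15 and 3.59 with wild-type marrow, a difference of -0.50 ± 0.26. The low values belonged to knockout replicates 2 and 3, and without them the difference was 0.05. Without knockout replicate 1 it was -0.77 (limma, unadjusted p = 0.00573, adjusted p = 0.142). Xrcc5, which encodes its partner Ku80, had levels of 0.60, 1.001 and 1.33 with knockout marrow and 0.61, 1.24 and 0.77 with wild-type marrow, a difference of 0.11 ± 0.25. The pair had different signs, and neither had an unadjusted p under 0.05 with all arrays. Parp1, the sensor of single-strand breaks, differed by -0.01 ± 0.17. Brca2, a factor of homologous recombination, differed by -0.07 ± 0.23.

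Brca1 and Fancd2, both used in recombination and crosslink repair, were at the limit of detection. The Brca1 probe was not well above background on any array. The Fancd2 probe was well above background on 1 knockout and 0 wild-type arrays, with measured levels of -4.56, -4.79 and -5.25 with knockout marrow, against -7.17, -6.02 and -7.11 with wild-type marrow. No fold is given, since 2 of the knockout values and all wild-type values were not well above background. Fancd2 was outside the tested probes. Without the filter on dim probes its measured difference was 1.90 (limma, unadjusted p = 0.00132), and that value rests mostly on signals not well above background.

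**Figure D3:**
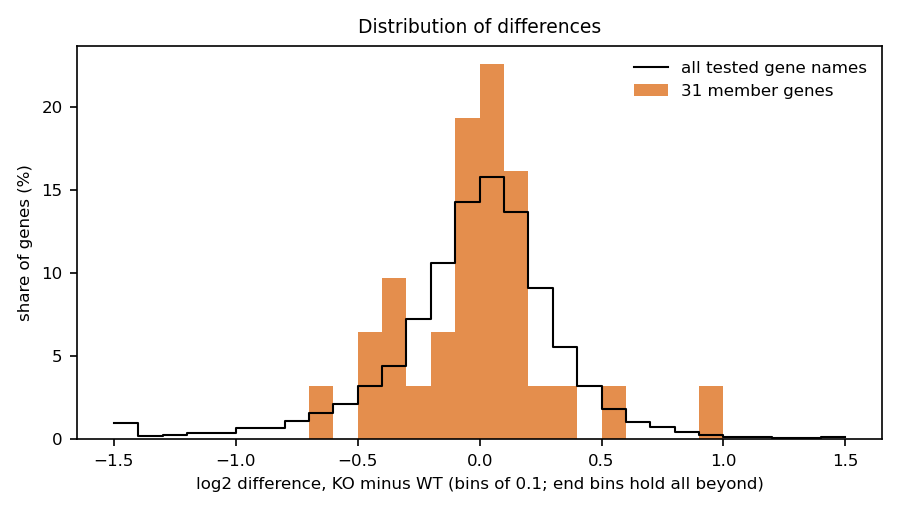
Distribution of knockout minus wild-type differences (log2, horizontal axis) for all 26410 tested gene names, drawn as a line, and for the 31 tested members, drawn as bars; the vertical axis is the percentage of each set per bin of 0.1. The members lie between -0.70 and 0.97, with 28 of 31 under 0.5 in size.

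The size of the members' differences can be set beside that of all genes. The median absolute difference was 0.11 for the members and 0.18 for all tested gene names. A difference smaller than 0.5 was measured for 28 of 31 members (90.3%) and for 87.0% of all gene names. The 95% interval lay within a 2-fold change in either direction for 26 of 31 members (83.9%) and for 79.6% of all gene names. By role, the median difference was 0.10 for p53 and its regulators, 0.01 for the arrest targets, 0.01 for the death targets, -0.01 for the repair targets, -0.04 for the damage sensors and -0.04 for the strand break repair genes. For these 26 members a 2-fold change was outside the 95% interval. For the remaining 5, Trp53inp1, Cdkn1a, Plk2, Gdf15 and Xrcc6, the interval reached past a 2-fold change. Their spread differed: the standard error was 0.15 for Plk2, whose difference was -0.70, and 0.50 for Gdf15.

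Agreement between probes of 1 gene could be examined for 9 members with more than 1 tested probe. In 5 of them all probes had the same sign, Cdkn1a, Mdm4, Trp53inp1, Aen and Ercc5, and in the other 4 the sign was mixed, Rrm2b, Polk, Atm and Atr. Cdkn1a was the only member with an unadjusted p under 0.05 at more than 1 probe. Its start codon probe cannot be counted as a second reading of the shared probe's transcripts. Its variant 2 probe turned to -0.011 without wild-type replicate 2.

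Further genes of the same pathways were counted in the same fit. Of 40 further p53 pathway genes, 37 were tested. With an unadjusted p under 0.05 there was 1 higher with knockout marrow and 0 were lower, and the median difference was 0.04. The share called was 2.70%, below the 8.07% of all tested gene names. The higher gene was Bid, a BH3-only protein that carries death-receptor signals to mitochondria. Its levels were -0.37, 0.14 and -0.07 with knockout marrow, against -0.66, -0.50 and -0.51 with wild-type marrow. The groups did not overlap and the difference was 0.46 ± 0.18 (limma, unadjusted p = 0.0369, adjusted p = 0.556). The count of higher genes in this list was 0 without wild-type replicate 2, without wild-type replicate 3, without knockout replicates 2 and 3 together, with median centring and without the filter on dim probes.

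Of 70 further DNA damage response genes, 67 were tested, with 1 higher, 1 lower and a median difference of 0.03. The share called was 2.99%, again below the 8.07% of all tested gene names. Trp53bp1 encodes the p53-binding protein that directs breaks to end joining, and its levels were 0.15, 0.64 and 0.73 with knockout marrow, against -0.10, -0.34 and -0.49 with wild-type marrow. The difference was 0.81 ± 0.21 with no overlap between groups (limma, unadjusted p = 0.0054, adjusted p = 0.435). A second, dimmer probe gave 0.32 ± 0.22 with overlap. Without knockout replicates 2 and 3 together, 0 genes of this list were higher at an unadjusted p under 0.05 in the limma fit.

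Wee1, the kinase that holds cells before mitosis, was lower with knockout marrow. Its levels were -1.59, -0.31 and -0.80 with knockout marrow, against 0.12, 0.13 and 0.27 with wild-type marrow, a difference of -1.07 ± 0.31 (limma, unadjusted p = 0.00913, adjusted p = 0.461). Wee1 is also known as a gene that the circadian clock drives in mouse liver, and Cdkn1a as a gene that the clock repressor Nr1d1 represses there. In these arches 3 of 16 tested clock genes were higher and 11 were lower at an unadjusted p under 0.05 in the limma fit, Nr1d1 among the lower ones (-1.75 ± 0.64). Its levels were 1.05, -1.63 and 0.72 with knockout marrow, against 1.63, 2.07 and 1.68 with wild-type marrow. The part of the clock in the Cdkn1a and Wee1 values was not tested.

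Markers of other cell types were set beside these results. Of 21 tested markers of cycling cells, 0 had an unadjusted p under 0.05 in either direction by limma. Their mean, as the deviation from the mean over the 6 arrays, was 0.16, 0.09 and -0.20 on knockout arrays and -0.04, 0.02 and -0.03 on wild-type arrays. Of 14 macrophage and monocyte markers 12 were tested, with 1 higher and 0 lower, and their mean was 0.03, 0.74 and -0.45 on knockout arrays and 0.16, -0.39 and -0.11 on wild-type arrays. Knockout replicate 2, the highest in these markers, was also the highest array for Gdf15 and for the shared Cdkn1a probe. The part of macrophage content in either was not tested. On the same scale, the mean of 10 cardiac muscle markers was 1.15, -0.80 and 0.76 on knockout arrays and -0.28, -0.38 and -0.44 on wild-type arrays. Of 14 immature thymocyte markers, 0 were higher and 3 lower at an unadjusted limma p under 0.05, with a median difference of -0.50. The median difference was 0.28 for 10 smooth muscle and -0.18 for 10 endothelial markers. The part of these cell types in the members was not tested.

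**Figure D4:**
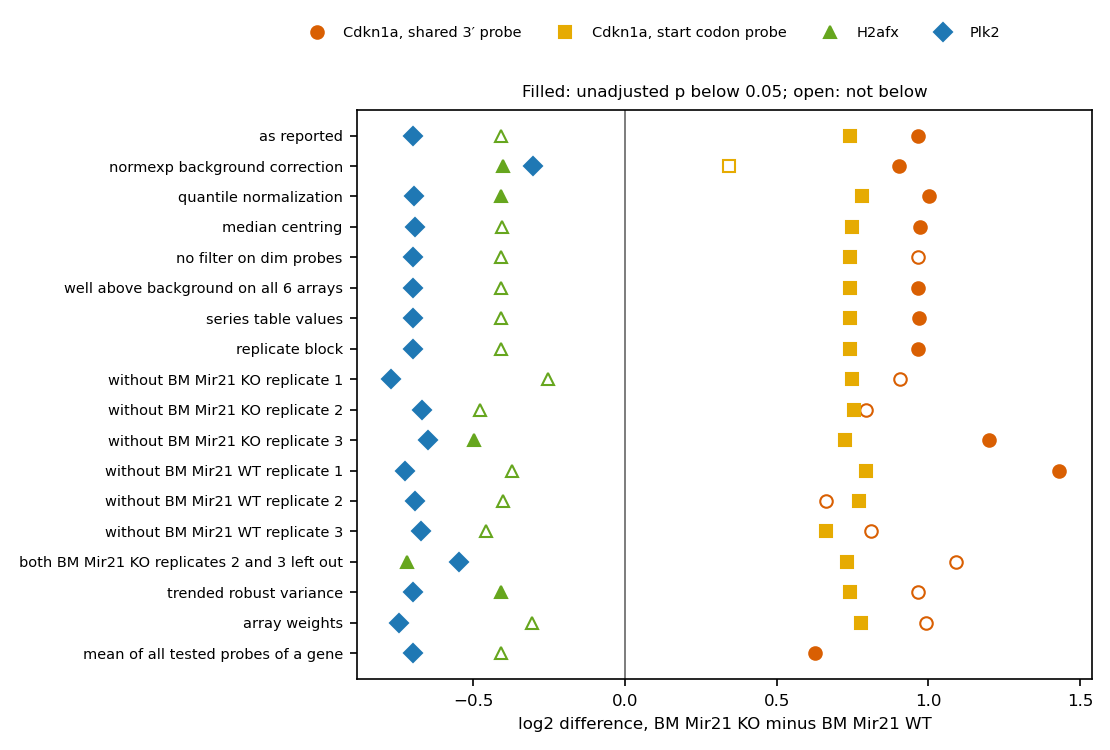
Knockout minus wild-type difference (log2) of Cdkn1a at the shared and the start codon probe, of Plk2 and of H2afx under each processing alternative, with the reported fit on top, the 17 alternatives below it and filled points where the unadjusted limma p was under 0.05. Plk2 is filled in 17 of 17 alternatives and the shared Cdkn1a probe in 9 of 17, and no difference crosses 0. In the bottom row the Cdkn1a point is the mean of its 3 probes.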

How the data were processed

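Arch RNA was hybridised to 1-colour Agilent arrays. Per the file headers, the deposited scanner files hold spot intensity on a linear scale from Agilent Feature Extraction 10.7.3.1, with background subtracted by the authors' software and no scaling between arrays. The deposited series table holds the same intensity values to within 0.5%, with column medians of 32.1 to 54.3, so its scale, centring and direction were settled.

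The log2 of the deposited processed signal was taken, minus each array's 75th percentile over non-control spots. Outlier spots were dropped before replicate spots were averaged. Testing was limited to the 38342 probes marked well above background on every array of 1 or both groups, after 12 were set aside for outliers. Differences were fitted with lmFit and eBayes of limma 3.58.1 in R 4.3.3, two-sided, without covariates, with p-values adjusted by Benjamini-Hochberg across these probes. A gene is its brightest tested probe, and the other tested probes of members are given beside it. The fit was run on simulated data with independent noise. The planted shifts all exceeded every tested member difference, so that run does not show how well differences of the members' size are found.

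The members and lists were chosen with earlier results of these data known. Values per array are given for Trp53, Mdm2 and Cdkn1a, for members with an unadjusted p under 0.05 at any probe and for the 2 smallest p in each role. From both further pathway lists, every gene with such a p is named. Gdf15, Fancd2 and Nr1d1 were added after their values were seen. Start windows are from RefSeq, build GRCm38.p6. Probe coordinates are on mm9 as in the files. Replicate numbers were not used to pair the arrays in the reported fit. Deviations of same-numbered arrays correlated at 0.12, 0.05 and -0.28. Differently numbered arrays were not set beside them, so these values cannot decide whether the arrays were paired. The number of arrays limits precision. The design text gives 3 mice per group, so the spread is between mice.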

Additional observations from a re-analysis of the deposited data

How the results depend on the processing

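Processing was varied in 17 ways, 6 of them leaving out 1 array. Over the 286 values of described members, 271 kept their sign and 15 turned it, and 0 members passed the adjusted test under any alternative. Members higher at an unadjusted p under 0.05 numbered 1 as reported, and 0 without BM Mir21 KO replicates 2 and 3 together, with trended robust variance and with array weights, with 0 to 1 when 1 array was left out. Without the filter on dim probes the 1 was Fancd2, not Cdkn1a (unadjusted p = 0.0624 by limma). Members lower numbered 1 as reported, 2 with normexp, quantile normalization, trended robust variance or array weights, and 6 without knockout replicates 2 and 3 (Rrm2b, H2afx, Gadd45a, Plk2, Perp and Polk), with 1 to 3 when 1 array was left out. Without those 2 arrays the median member difference was -0.13, against -0.06 to 0.07 when 1 array was left out. Leaving out knockout replicate 2 took Gadd45a (-0.55) and Rrm2b (-0.55) under 0.05, leaving out knockout replicate 1 Xrcc6 (-0.77) and Phlda3 (-0.56), and leaving out knockout replicate 3 H2afx (-0.50). The fit without knockout replicates 2 and 3 leaves 1 knockout array, which is assumed to vary like the others. The cause was not tested.

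Probes past the adjusted test numbered 1 as reported, 4 with normexp, 2 with median centring, without knockout replicates 2 and 3, with trended robust variance or with array weights, 0 where all 6 arrays had to be well above background, and 1 to 2 when 1 array was left out. Further p53 pathway genes numbered 1 higher and 0 lower as reported. The higher count was 2 with normexp, 0 with median centring, no filter or without knockout replicates 2 and 3, 4 with array weights and 0 to 4 when 1 array was left out. The lower count was 2 without knockout replicates 2 and 3 or with array weights, and 0 to 1 when 1 array was left out. Further DNA damage response genes numbered 1 higher and 1 lower as reported. The higher count was 0 without knockout replicates 2 and 3 and 1 to 3 when 1 array was left out. The lower count was 3 with normexp or array weights and 1 to 3 when 1 array was left out.

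Without knockout replicates 2 and 3 the sign turned for Trp53 (-0.00036), Mdm2 (-0.17), Zmat3 (-0.24), Phlda3 (0.045), Ercc5 (-0.13), Xrcc5 (-0.27) and Xrcc6 (0.050). Leaving out 1 array gave -0.033 to 0.24 for Trp53, -0.020 to 0.25 for Mdm2, -0.027 to 0.23 for Ercc5, -0.071 to 0.30 for Xrcc5, -0.015 to 0.49 for Chek2 and -0.011 to 0.34 for the variant 2 probe of Cdkn1a. With the replicate block the member counts stayed at 1 higher and 1 lower and the median at 0.00, with unadjusted p = 0.0276 for Cdkn1a and unadjusted p = 0.0108 for Plk2 by limma. Brca1, Eda2r and Fancd2 were too dim for the test.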
